A study of Mus musculus with 12 samples.

Results

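Protein synthesis on a messenger RNA begins with the translation initiation factors, and their transcripts were examined here as 1 group of genes. Members were the protein-coding genes whose symbol starts with Eif1 to Eif6. The eIF2 alpha kinases (symbols starting Eif2ak) and the sex-linked pair Eif2s3x and Eif2s3y were left out. This gave 51 genes of the 55487 features measured, and 48 of them passed the filter on low values (log2 CPM above 0 in at least 4 samples), as did 12364 features in all. The symbol rule also takes in genes that are no classical initiation factors, such as Eif4a3, the RNA helicase of the exon junction complex. Below the filter were Eif4e1b, Eif4ebp3 and Eif4a3l1, with at most 1, 8 and 18 reads in any library.

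RNA was sequenced from mouse natural killer (NK) cells, lymphocytes that release interferon gamma and kill target cells. All mice were of strain B6.129S4-Ifngtm3.1Lky/J and labelled mut/mut, an interferon gamma reporter line in which cells making that cytokine carry yellow fluorescent protein (YFP), and the titles name HD IL-15 for all samples. The 3 groups were unstimulated cells, and cells stimulated through the surface receptor NK1.1 with an antibody for 6 h and separated into YFP- and YFP+ fractions; no time is labelled for unstimulated cells. Each group held 4 samples labelled f2, m2, m3 and m4, and values below follow that order. The labels do not say that samples came from separate mice, so p-values measure the spread between these samples, which may be technical.

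Initiation proceeds in steps that different factors serve. eIF2 brings the initiator tRNA to the small ribosomal subunit and eIF2B recharges it with GTP, while eIF3 holds the complex together. eIF4F, made of the cap-binding protein eIF4E, the scaffold eIF4G and the helicase eIF4A, brings in the messenger RNA, and eIF4E-binding proteins block it until the kinase mTORC1 phosphorylates them.

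Library totals ran from 32.1 to 54.2 M reads, so that 3 reads corresponded to 0.0553 to 0.0933 CPM, reads per 1000000 reads of a library. All 10 NK cell markers passed the filter, and their summed level spanned 13569 to 16241 CPM (unstimulated), 9576 to 12111 CPM (YFP-) and 10145 to 14094 CPM (YFP+). Gzma, the most abundant marker of this sum, spanned 7843 to 9334, 3769 to 5124 and 3875 to 4773 CPM in that order. Single NK cell markers moved in different directions. Tbx21 spanned 29.0 to 38.5, 66.8 to 93.3 and 62.8 to 115 CPM, and Eomes 102 to 115, 57.5 to 84.3 and 38.3 to 43.0 CPM. Klrb1c, which encodes NK1.1, the receptor used for stimulation, spanned 290.2 to 327 CPM (unstimulated), 57.6 to 86.6 CPM (YFP-) and 3.70 to 8.97 CPM (YFP+). The 6 T cell markers summed to 45.8 to 106 CPM, 39.7 to 62.7 and 22.6 to 45.9 in the same order. In that order Cd3g spanned 30.9 to 79.4, 24.4 to 41.7 and 11.7 to 31.9 CPM. Cd3d spanned 14.2 to 25.9, 12.8 to 20.6 and 7.25 to 13.8 CPM, and Cd3e 0.123 to 0.816, 0.326 to 1.49 and 0 to 0.0829. Cd4, Cd8a and Cd8b1 reached at most 0.193 CPM in any library. B cell markers reached at most 4.19 CPM in any library, monocyte and macrophage markers 2.84, neutrophil markers 1.5 and red cell markers 0.158. The part of other cells in the results below was not tested.

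Most initiation factor transcripts rose with stimulation, in cells with and without reporter signal. In YFP- against unstimulated samples 35 of the 48 tested members were higher and 2 were lower (limma, Benjamini-Hochberg adjusted p under 0.05), where 30.2% of all tested genes were higher and 20.9% lower. In YFP+ against unstimulated samples 34 were higher and 2 lower, against 27.5% and 33.3% of all genes. The median log2 change of the members was 0.75 in YFP- and 0.68 in YFP+ samples, and that of all tested genes was 0.14 and -0.03. With each library centred on its median, 31 were higher (26.5% of all genes) and 3 lower (26.6%) in YFP-, with Eif1ax, Eif3i, Eif4e2 and Eif4g2 lost and Eif1b lower. With rRNA-like features, Lars2, Mir6236 and Gm23935 taken out of the library totals (reduced totals, chosen after seeing the data), 31 members were higher (24.1% of all genes) and 4 lower (27.4%) in YFP-, and 30 higher (22.4%) and 5 lower (39.5%) in YFP+. Both comparisons use the same 4 unstimulated samples, so their values are not independent. In bulk RNA, fewer cells that express a gene and less RNA per cell cannot be told apart.

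Summed over all 51 members, the level was 9042 ± 560.4 CPM (SD, n = 4) in unstimulated, 15639 ± 1330.4 CPM (SD, n = 4) in YFP- and 16343 ± 1528 CPM (SD, n = 4) in YFP+ samples. No stimulated sample came down to the unstimulated range, which ended at 9452 CPM. By single genes, the groups did not overlap for 36 members higher and 4 lower in YFP- against unstimulated samples (30.9% and 21.7% of all genes), and for 33 higher and 3 lower in YFP+ (24.0% and 30.8%). The pattern of calls was shared by 31 members that rose in both stimulated groups with no call between them. At most 27.5% of all tested genes can show it, the share higher in YFP+, and their exact share was not computed. Both stimulated groups were set against the same unstimulated samples, so joint calls are not independent. Another 9 members passed the test in none of the 3 comparisons: Eif1b, Eif2d, Eif2b2, Eif3f, Eif4a2, Eif4b, Eif4h, Eif4enif1 and Eif5a2. For all tested genes the share without any call was not computed either.

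**Figure D1:**
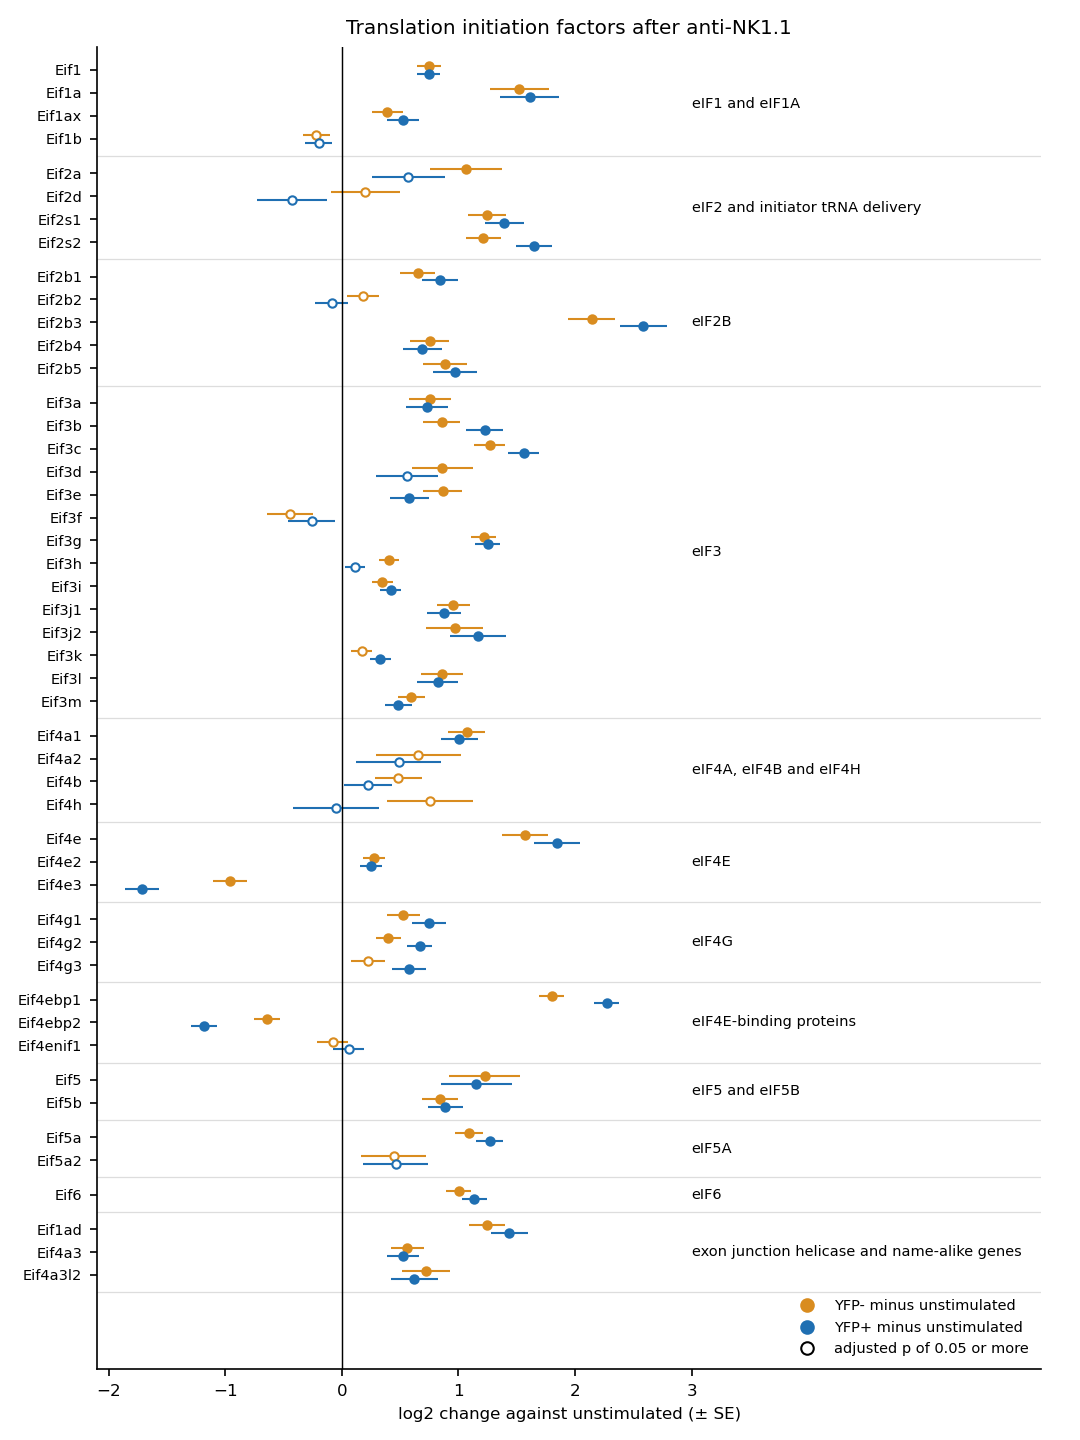
Log2 change of each of the 48 tested members against unstimulated samples, with its SE, for YFP- (orange) and YFP+ (blue) samples, grouped by factor complex. Filled points passed the adjusted p of 0.05. Most points lie to the right of 0, and Eif4e3 and Eif4ebp2 are the only filled points to its left.

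Among libraries, 3 stood apart, and they touch many values below. The unstimulated m4 library had the lowest level of its group for 32 of 48 members, YFP- m3 for 36 and YFP+ m3 for 35. Their members lay at a median log2 of -0.18, -0.19 and -0.22 from the group mean, and all tested genes at -0.06, -0.18 and -0.10. Reads on rRNA-like features made up 15.2%, 17.8% and 15.5% of these libraries, the highest share of each group. The part of these reads in the results was not tested. With YFP+ m3 left out, a setting chosen after seeing the data, 37 members were higher (30.5% of all genes) and 2 lower (32.5%) in YFP+ against unstimulated samples. Leaving out the label m4 in all groups gave 27 higher (21.9% of all genes) and 2 lower (16.3%) in YFP-, and 31 higher (22.8%) and 2 lower (29.5%) in YFP+.

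In the complex that scans for the start codon, 3 of 4 genes rose in each stimulated group. Of all tested genes 30.2% were higher in YFP- and 27.5% in YFP+. Eif1 guards the choice of start codon, and eIF1A, encoded by Eif1a and Eif1ax, works beside it. Eif1 stood at 1452, 1595, 1563 and 1493 CPM in unstimulated, 2624, 2633, 2135 and 2912 in YFP- and 2698, 2549, 2365 and 2631 in YFP+ samples. All stimulated samples lay above all unstimulated ones, with a log2 change of 0.75 in YFP- (SE 0.0998, adjusted p = 4.2e-05) and 0.75 in YFP+ (2.1e-05). Its paralog Eif1b held 62.0, 68.4, 68.7 and 62.0 CPM in unstimulated, 57.2, 61.5, 46.3 and 60.7 in YFP- and 56.7, 56.8, 53.4 and 60.4 in YFP+ samples. Here the stimulated samples lay below the unstimulated ones in both comparisons, at log2 differences of -0.22 and -0.20 that did not pass the test (adjusted p = 0.135 and 0.154). Eif1b passed as lower with reduced totals (0.00413 and 0.00349), quantile normalization (0.00208 and 0.0239) and totals without rRNA-like features (0.0353 and 0.0213), and in YFP- with voom weights (0.0481).

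Eif1a showed the largest rise of this complex. It measured 51.4, 53.0, 53.9 and 28.4 CPM in unstimulated, 128, 132, 122 and 139 in YFP- and 171, 172, 77.7 and 159 in YFP+ samples. The unstimulated m4 and YFP+ m3 libraries were far below the others of their groups, yet no stimulated sample overlapped the unstimulated range, and the log2 change was 1.52 (SE 0.26, adjusted p = 0.000262) in YFP- and 1.61 (SE 0.26, 9.5e-05) in YFP+. Eif1ax, the X-linked copy, had 130.1, 162, 164 and 111 CPM in unstimulated, 167, 178, 178 and 213 in YFP- and 188, 199, 206 and 214 in YFP+ samples. It rose less, by log2 0.39 (0.0266) and 0.53 (0.00390), and the YFP- call was lost without label f2 (adjusted p = 0.0731) or m4 (0.242), with centring, quantile normalization or reduced totals (0.168 to 0.392) and with no filter on low values (0.109). Reads that fit both Eif1a and Eif1ax, or Eif1 and its pseudogenes, could be split by the counting in ways the sources used here do not give.

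Within eIF2 both subunits among the members rose. Eif2s2, the beta subunit, registered 161, 215, 204 and 150.2 CPM in unstimulated, 437, 373, 373 and 503 in YFP- and 479.7, 541, 584 and 678 in YFP+ samples. Each stimulated sample exceeded each unstimulated one, with a log2 change of 1.21 (SE 0.15, adjusted p = 2.5e-05) in YFP- and 1.65 (6.5e-07) in YFP+. Eif2s1, the alpha subunit that the stress kinases phosphorylate, rose by log2 1.24 and 1.39 (adjusted p = 4.0e-05 and 7.0e-06).

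Genes for alternative initiator tRNA delivery were less uniform. Eif2a, named here after its values were seen, was at 21.1, 22.4, 25.1 and 21 CPM in unstimulated, 45.6, 51.8, 36.1 and 56.1 in YFP- and 58.2, 51.1, 19.1 and 21.4 in YFP+ samples. In YFP+ samples it split into f2 and m2, level with the YFP- samples, and m3 and m4, at the unstimulated level. Its log2 change was 1.07 in YFP- (adjusted p = 0.0114, 0.0616 without label m4 and 0.107 with no filter) and 0.57 in YFP+ (0.128, or 0.0173 without YFP+ m3, 0.0299 with centring and 0.0494 with quantile normalization). Eif2d passed in neither comparison, at log2 0.20 and -0.43 (adjusted p = 0.593 and 0.232), though the YFP+ value passed as lower with reduced totals (0.0440).

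The exchange factor eIF2B held the largest rise among the 48 members. Eif2b3 (ENSMUSG00000028683, chr4:117019402-117087306, plus strand) encodes its gamma subunit, part of the catalytic core. It measured 19.7, 19.0, 25.3 and 16.0 CPM in unstimulated, 85.2, 89.2, 72.6 and 105 in YFP- and 156, 137, 81.4 and 113 in YFP+ samples. Even the m3 libraries, the lowest of both stimulated groups, were far above every unstimulated sample, and the log2 change was 2.15 (SE 0.20, adjusted p = 2.4e-06) in YFP- and 2.59 (SE 0.20, 1.5e-07) in YFP+, 4.42-fold and 6.00-fold.

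Of the other eIF2B subunits, Eif2b5, the catalytic epsilon subunit, rose by log2 0.88 and 0.97 (adjusted p = 0.00155 and 0.000488). The regulatory subunits Eif2b1 and Eif2b4 rose as well, by log2 0.65 and 0.75 in YFP- and 0.84 and 0.69 in YFP+ samples. The remaining regulatory subunit, Eif2b2, did not pass, at log2 0.18 (adjusted p = 0.297) and -0.087 (0.615). Its difference in YFP+ changes sign with the scaling of the libraries, from 0.043 with trimmed-mean scaling to -0.28 with reduced totals (adjusted p = 0.0392).

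eIF3, the largest factor, had 14 genes tested. In YFP- samples 12 were higher and 0 lower (30.2% and 20.9% of all tested genes), with a median log2 change of 0.86. In YFP+ samples 11 were higher and 0 lower (27.5% and 33.3%), with a median of 0.66. These counts include Eif3j2, a near copy of Eif3j1. How reads that fit both were counted is not given in the sources used here. Eif3c, a core subunit, showed the largest change with 169, 208, 196 and 175 CPM in unstimulated, 473, 561, 354 and 434 in YFP- and 594, 532, 567 and 515 in YFP+ samples. The 8 stimulated values all lay above the 4 unstimulated ones, with log2 changes of 1.27 (SE 0.13, adjusted p = 5.9e-06) and 1.56 (SE 0.13, 3.3e-07). Eif3g, an RNA-binding subunit, rose by log2 1.22 and 1.25 (adjusted p = 1.3e-06 and 3.2e-07), and Eif3b, the scaffold subunit, by log2 0.86 and 1.23 (0.000571 and 1.6e-05).

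Eif3i, Eif3k and Eif3m changed by less than the median of the complex in YFP- and YFP+ samples. Eif3i rose by log2 0.35 and 0.42 (adjusted p = 0.00564 and 0.00111), and the YFP- call was lost without label m2 (0.0512), with centring (0.156), quantile normalization (0.195) or reduced totals (0.181). The YFP+ call of Eif3i was lost with quantile normalization (0.0520) and reduced totals (0.0587). For Eif3k the YFP- log2 difference of 0.17 did not pass (0.137) while YFP+ was higher by 0.33 (0.00644). That call was lost with reduced totals (log2 0.14, adjusted p = 0.324) and quantile normalization (log2 0.17, 0.238). Eif3m rose by log2 0.60 and 0.49 (0.000981 and 0.00288). The rest of the complex, Eif3a, Eif3e, Eif3j1, Eif3j2 and Eif3l, rose in both groups by log2 0.76 to 0.97 in YFP- and 0.58 to 1.17 in YFP+. Of these, the YFP+ rise of Eif3e was lost without label f2 (adjusted p = 0.0583) or m4 (0.0764), or with no filter (0.0637).

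Eif3h, Eif3d and Eif3f departed from the rest of eIF3. Eif3h held 895, 934, 857 and 909 CPM in unstimulated, 1146, 1213, 1142 and 1259 in YFP- and 1048, 1020.0, 873 and 951 in YFP+ samples. Its YFP- samples were all above both other groups, at log2 0.40 over unstimulated (adjusted p = 0.00176), and its YFP+ samples, at 0.11 (0.287, or 0.0422 with trimmed-mean scaling), overlapped the unstimulated range. Eif3d, whose exons overlap those of Gm17638, had log2 changes of 0.86 in YFP- (0.0150, lost without m2 at 0.0576, without m4 at 0.122 or with no filter at 0.128) and 0.56 in YFP+ (0.0816, or 0.000471 without YFP+ m3, 0.0335 with trimmed-mean scaling and 0.0127 with centring).

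Eif3f, singled out after its values were seen, had 232, 239, 259 and 298 CPM in unstimulated, 212, 158, 213 and 175 in YFP- and 147, 179.9, 288 and 275 in YFP+ samples. YFP- samples all lay below the unstimulated ones, and YFP+ samples split into f2 and m2 below and m3 and m4 within the unstimulated range. The log2 differences of -0.45 and -0.26 did not pass the test (adjusted p = 0.0774 and 0.281), although the YFP- value passed without label f2 (0.0422) or YFP+ m3 (0.0457), with reduced totals (0.0458), quantile normalization (0.0267) and the 8 samples compared alone (0.00982).

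Levels of the eIF3 subunits differed far more between genes than between groups. Per kb of annotated exon, Eif3h was highest at 558 ± 20.0 CPM per kb in unstimulated samples (SD, n = 4), and Eif3j1, a loosely bound subunit, was lowest at 2.90 ± 0.196 CPM per kb when its near copy Eif3j2 is set aside. Between these subunits the range was 193-fold in unstimulated, 131-fold in YFP- and 113-fold in YFP+ samples. Eif3g moved from 96.6 ± 4.37 CPM per kb to 226 ± 25.3 CPM per kb and 230.2 ± 18.1 CPM per kb, from the fifth place to the place below Eif3h. In unstimulated samples Eif3m and Eif3g, at 97.4 ± 5.33 CPM per kb and 96.6 ± 4.37 CPM per kb, did not differ beyond their SD. Exon length counts every annotated exon, so genes with long unused exons read low.

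**Figure D2:**
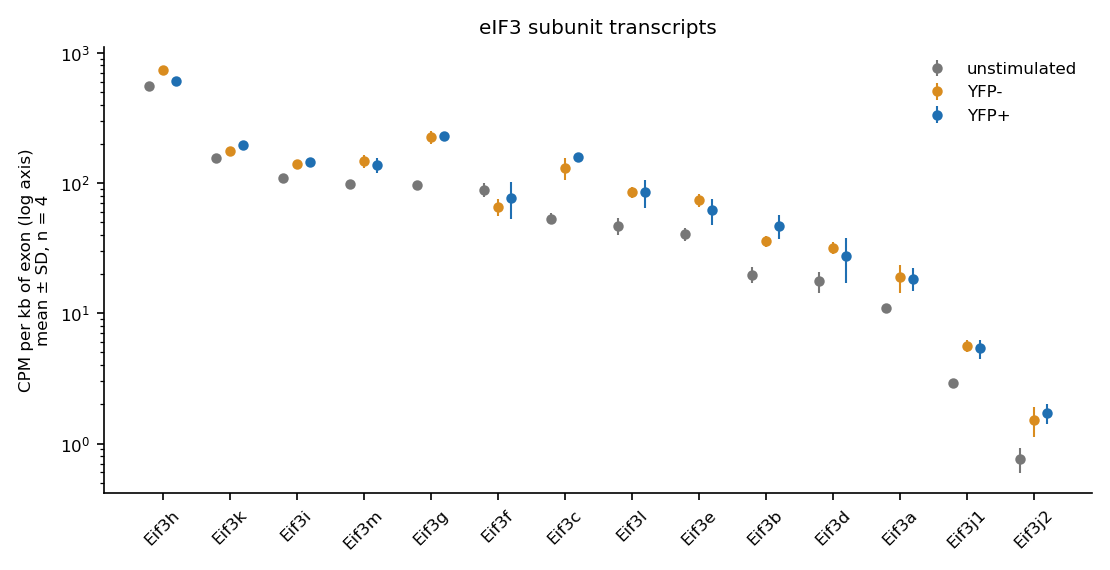
Mean CPM per kb of exon (log axis) of the 14 eIF3 genes, with SD over 4 samples, in unstimulated, YFP- and YFP+ samples. Eif3h is the highest and Eif3j2 the lowest in each group, and Eif3f is the gene whose stimulated means both lie below the unstimulated mean.

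RefSeq promoter windows were at hand for 38 of the 51 members. A run of at least 10 pyrimidines within 10 bases before to 20 after an annotated start, which resembles the start of messages whose translation follows mTORC1, was found in 4 members, or 4 of their 50 windows (8%), against 4.77% of all 32851 windows. The windows of Eif3f, Eif2b5 and Eif3l are shown because these genes share such a start but not their response; the remaining member with a run was Eif4enif1. Capitals mark the run, on GRCm38.p6.
Eif3f, chr7:108934405-108934434, plus strand: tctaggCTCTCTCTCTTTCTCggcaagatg
Eif2b5, chr16:20498807-20498836, plus strand: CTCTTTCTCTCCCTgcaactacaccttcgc
Eif3l, chr15:79075213-79075242, plus strand: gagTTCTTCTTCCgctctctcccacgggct
Beside these starts, Eif3l rose by log2 0.86 in YFP- and 0.82 in YFP+ samples (adjusted p = 0.00125 and 0.00115), and Eif2b5 by the values above, whereas Eif3f did not rise. The match describes the letters in the window only.

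The cap-binding proteins moved in opposite directions. Eif4e (ENSMUSG00000028156, chr3:138526179-138559696, plus strand), the main cap-binding protein, measured 101, 98.1, 95.5 and 66.0 CPM in unstimulated, 264, 266, 223 and 314 in YFP- and 388, 355, 212 and 362 in YFP+ samples. All stimulated values exceeded the unstimulated ones, although YFP+ m3 was below the other YFP+ samples, and the log2 change was 1.57 (SE 0.20, adjusted p = 2.5e-05) in YFP- and 1.85 (SE 0.20, 2.6e-06) in YFP+. Eif4e2, a paralog that binds the cap without eIF4G, showed 145, 162, 157 and 143 CPM in unstimulated, 175, 190.2, 176 and 191 in YFP- and 194, 181, 171 and 177 in YFP+ samples. It was higher by log2 0.27 (0.0269) and 0.25 (0.0321), calls that were lost without label f2 (0.0808 and 0.181), m2 (0.0969 and 0.0833) or m4 (0.167 and 0.127). They were also lost with quantile normalization (log2 0.034 and 0.075) and reduced totals (log2 0.091 and 0.062), with adjusted p from 0.408 to 0.780, and without the intensity trend (0.0506 and 0.0582). The YFP- call was lost with centring (0.284) and the YFP+ call with totals without rRNA-like features (0.0907).

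Eif4e3 (ENSMUSG00000093661, chr6:99625135-99666771, minus strand), a divergent cap-binding paralog, fell. It registered 13.7, 17, 15.4 and 15.0 CPM in unstimulated, 7.74, 9.95, 7.07 and 6.95 in YFP- and 4.76, 4.72, 4.31 and 4.79 in YFP+ samples. The 3 groups did not overlap, with unstimulated samples highest and YFP+ samples lowest, and the log2 change was -0.96 (SE 0.15, adjusted p = 0.000123) in YFP- and -1.71 (3.2e-07) in YFP+. Per kb of exon, Eif4e was 1.84 to 3.10 times Eif4e3 within single unstimulated libraries, 11.2 to 18.9 times in YFP- and 20.6 to 34.1 times in YFP+ libraries.

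The scaffolds rose by less. Eif4g1 stood at 60.0, 66.4, 70.8 and 55.3 CPM in unstimulated, 94.7, 113, 73.2 and 86.5 in YFP- and 106, 116, 90.5 and 111 in YFP+ samples. Stimulated samples lay above unstimulated ones, narrowly so for YFP- m3, with a log2 change of 0.53 in YFP- (adjusted p = 0.00769, or 0.056 without f2 and without m4) and 0.75 in YFP+ (0.000491). Eif4g2, a relative that lacks the eIF4E-binding part, had 145, 153, 156 and 154 CPM in unstimulated, 212, 198, 196 and 198 in YFP- and 206, 228, 274 and 265 in YFP+ samples, with no overlap and log2 changes of 0.40 (0.00661, or 0.137 to 0.351 with centring, reduced totals or quantile normalization) and 0.67 (9.7e-05). Eif4g3 measured 28.8, 31.8, 37.3 and 30.8 CPM in unstimulated, 44.8, 35.7, 33.3 and 36.9 in YFP- and 39.2, 47.7, 48.4 and 57.1 in YFP+ samples. Its YFP- samples overlapped the unstimulated ones (log2 0.23, adjusted p = 0.208), and its YFP+ samples were all above them (0.57, 0.00348).

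Of the helicase and its helpers only Eif4a1 passed the test. Eif4a1 held 415, 416, 436 and 295 CPM in unstimulated, 763, 847, 736 and 916 in YFP- and 896, 905, 585 and 769 in YFP+ samples. It rose by log2 1.07 (SE 0.16, adjusted p = 9.6e-05) and 1.01 (8.9e-05) with no overlap. Eif4a2, the second helicase gene, was at 67.3, 64.1, 49.4 and 34.1 CPM in unstimulated, 104, 87.6, 59.5 and 82.3 in YFP- and 112, 101, 29.0 and 84.8 in YFP+ samples. YFP+ m3 lay below every unstimulated sample while the other YFP+ samples lay above them, and the log2 differences of 0.66 and 0.49 did not pass (0.150 and 0.267); without YFP+ m3 both did (0.0200 and 0.00341), and in YFP- also the 8 samples compared alone (0.0186).

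Eif4b and Eif4h encode proteins that stimulate the helicase. Eif4h, named after its values were seen, had 233, 205, 178 and 89.9 CPM in unstimulated, 306, 309, 230.3 and 285 in YFP- and 259, 253, 74.0 and 138 in YFP+ samples. Its spread within the unstimulated and YFP+ groups was wider than the distance between their means, and the log2 differences of 0.76 and -0.050 did not pass (adjusted p = 0.102 and 0.919, or 0.0302 in YFP- with YFP+ m3 left out and 0.0143 from the 8 samples compared alone). Eif4b differed by log2 0.49 and 0.22 (0.0628 and 0.367), of which the YFP- value passed with YFP+ m3 left out (0.0278), without label m3 (0.0472) and from the 8 samples compared alone (0.0165).

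Paralogs of the eIF4E-binding proteins moved apart. Eif4ebp1 (ENSMUSG00000031490, chr8:27260329-27276674, plus strand) measured 146, 167, 165 and 134 CPM in unstimulated, 559, 514, 466 and 596 in YFP- and 742, 747, 705 and 757 in YFP+ samples. The 3 groups were apart, with unstimulated lowest and YFP+ highest, and Eif4ebp1 rose 3.48-fold in YFP- (log2 1.80, SE 0.11, adjusted p = 4.3e-08) and 4.83-fold in YFP+ (log2 2.27, 2.1e-09). Eif4ebp2 (ENSMUSG00000020091, chr10:61428491-61452661, minus strand) ran the other way, with 72.2, 70.5, 71.6 and 74.1 CPM in unstimulated, 52.6, 50.4, 40.6 and 42.8 in YFP- and 31.7, 32.1, 31.1 and 32.0 in YFP+ samples. It fell in every label, with log2 changes of -0.64 (SE 0.11, 0.000346) and -1.18 (7.7e-07), and its groups did not overlap either.

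Of the remaining eIF4E-binding genes, Eif4ebp3 was below the filter and Eif4enif1 did not pass the test. Eif4ebp3 was at 0 CPM in 8 of 12 libraries and at 0.163 CPM in the highest, YFP- m4. Of its exon length, 67.3% overlaps AC115631.1 on the same strand. How reads there were counted is not given in the sources used here, so its low level may be a matter of counting, which was not tested. Eif4enif1, which carries eIF4E into the nucleus, differed by log2 -0.079 and 0.060 (adjusted p = 0.648 and 0.724). Per kb of exon, Eif4ebp1 was 4.77 to 6.23 times Eif4ebp2 in unstimulated libraries, 26.8 to 36.7 times in YFP- and 59.7 to 62.3 times in YFP+ libraries.

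**Figure D3:**
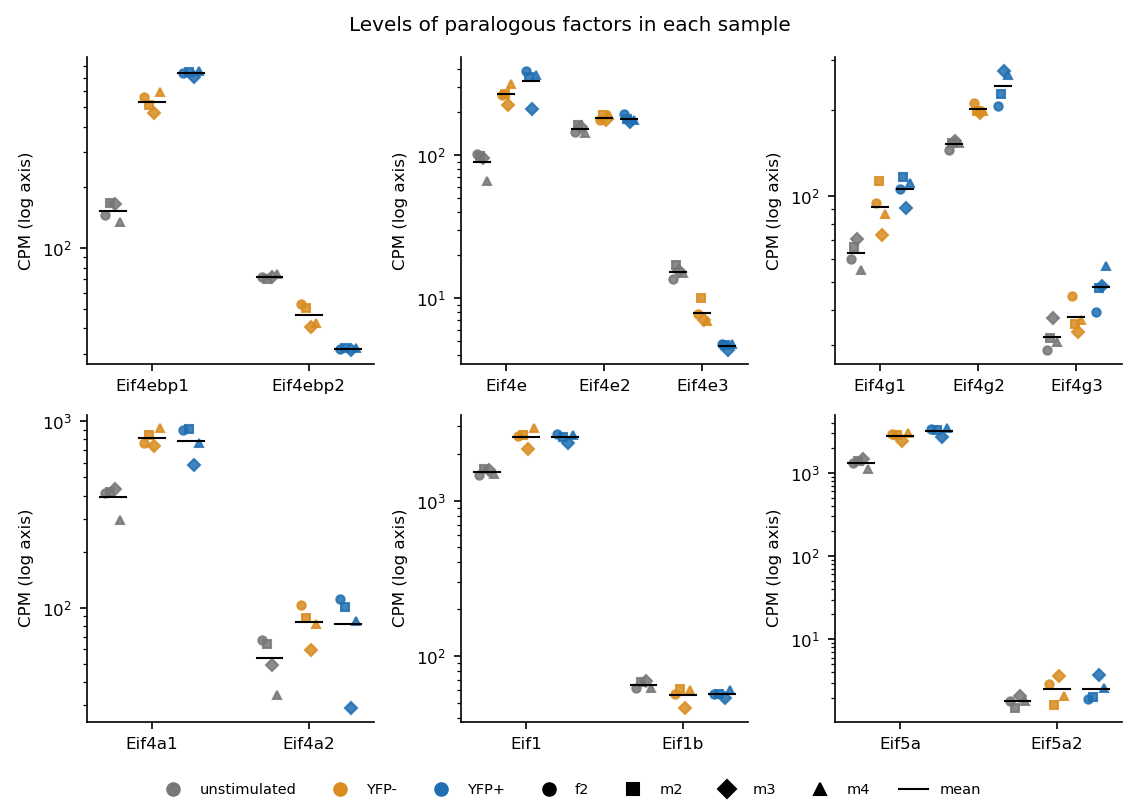
CPM (log axis) of paralogous factors in each of the 12 samples, coloured by group, with symbols for the labels f2, m2, m3 and m4 and a line at the group mean. Eif4ebp1 and Eif4e climb from unstimulated to YFP+ while Eif4ebp2 and Eif4e3 descend, and the m3 diamond of YFP+ lies low for Eif4e, Eif4a1 and Eif4a2.

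A ratio within a library does not depend on how libraries are scaled, so 9 paralog pairs were compared by their log2 ratio with a 2-sided exact permutation test over 70 splits. The smallest p this design allows is 0.0286, which became 0.0643 after Benjamini-Hochberg adjustment over the 27 tests, so none passed 0.05 once adjusted. The smallest p was reached in all 3 comparisons by Eif4ebp1/Eif4ebp2, with log2 differences of 2.44 (YFP- against unstimulated), 3.46 (YFP+ against unstimulated) and 1.02 (YFP+ against YFP-), each higher in 4 of 4 labels. The pair Eif4e/Eif4e3 reached it too, with 2.53, 3.56 and 1.03. Eif4e/Eif4e2 and Eif1/Eif1b reached it against unstimulated samples, with 1.30 and 1.60 for the former and 0.96 and 0.95 for the latter. For YFP+ against YFP- they gave 0.30 (p = 0.171) and -0.02 (0.657) in the same exact test. Where the genes of a pair separated without overlap in opposite directions, their ratio had to separate too. The smallest p then only repeats the single-gene values. This held for Eif4ebp1/Eif4ebp2 in all 3 comparisons, and for Eif4e/Eif4e3 and Eif1/Eif1b against unstimulated samples.

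Ratios of the other pairs were closer to the spread. Eif4a1/Eif4a2 differed by 0.42 and 0.52 against unstimulated samples (exact p = 0.114 and 0.143) and Eif4g1/Eif4g2 by 0.13 and 0.08 (exact p = 0.400 and 0.600). Eif1a/Eif1ax gave 1.13 and 1.09 (exact p = 0.0286 and 0.0571), with YFP+ m3 inside the unstimulated range. Eif5a/Eif5a2 gave 0.64 and 0.81 (exact p = 0.114 and 0.0857). For Eif4g1/Eif4g3 the values were 0.30 and 0.17 (exact p = 0.0286 and 0.314).

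**Figure D4:**
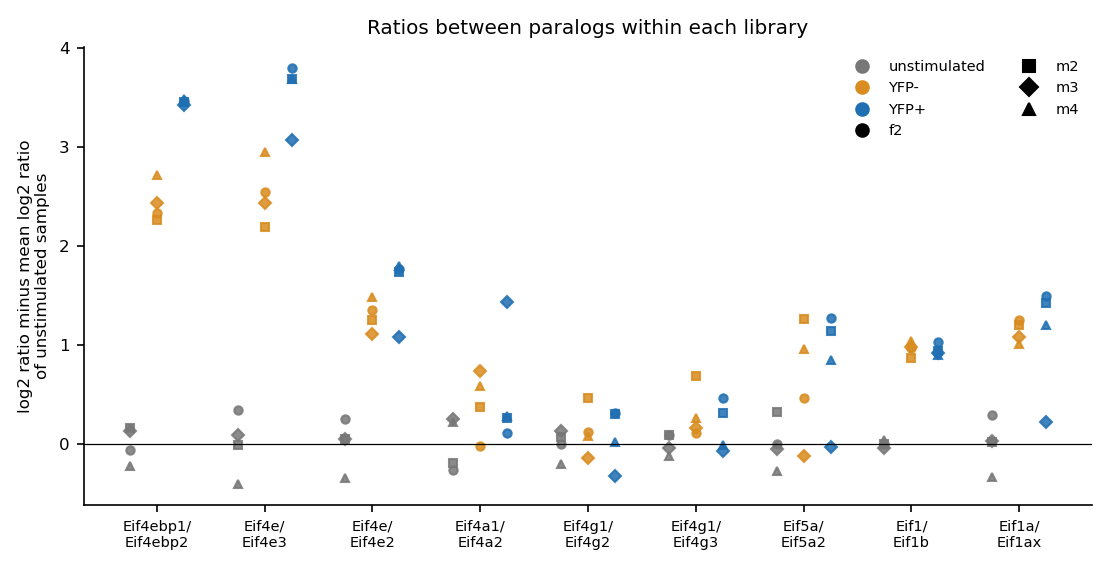
Log2 ratio of 9 paralog pairs in each library, less the mean of the 4 unstimulated libraries, coloured by group with symbols for the labels. For Eif4ebp1/Eif4ebp2 and Eif4e/Eif4e3 the 3 groups separate in the order unstimulated, YFP-, YFP+, while the Eif4g1/Eif4g2 points of all groups overlap.

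The sequence CACGTG, the E-box that Myc and related factors recognise, was searched in the 250 bases before each annotated start. It reads the same on both strands. At least 1 copy was found before 9 of the 38 member genes, or in 11 of 50 windows (22%), against 6.02% of all windows: Eif1b, Eif3f, Eif3k, Eif4a1, Eif4e, Eif4g1, Eif4h, Eif5a and Eif5a2. Of these, Eif4a1, Eif4e, Eif4g1 and Eif5a rose in both stimulated groups, and Eif1b, Eif3f, Eif4h and Eif5a2 passed the test in neither; Eif3k passed it in YFP+. Copies were held by 4 of the 23 members with a window that rose in both groups and by 5 of the 14 other tested members with one. Both Eif4g3 windows, the Eif4a2 window and the other annotated start of Eif4e hold 0 copies. Genes with several starts count more than once among the windows, as Eif5a does, which has windows with and without a copy. The windows shown, for Eif4e, Eif4g1 and Eif4a1, are those of the eIF4F genes that hold a copy. They come from RefSeq on GRCm38.p6, and capitals mark CACGTG.
Eif4e, chr3:138527018-138527267, plus strand: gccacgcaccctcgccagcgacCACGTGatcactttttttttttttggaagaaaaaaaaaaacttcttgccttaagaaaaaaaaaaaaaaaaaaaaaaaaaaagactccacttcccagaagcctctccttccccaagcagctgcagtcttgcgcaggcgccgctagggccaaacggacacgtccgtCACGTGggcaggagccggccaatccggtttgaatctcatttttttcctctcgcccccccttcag
Eif4g1, chr16:20672477-20672726, plus strand: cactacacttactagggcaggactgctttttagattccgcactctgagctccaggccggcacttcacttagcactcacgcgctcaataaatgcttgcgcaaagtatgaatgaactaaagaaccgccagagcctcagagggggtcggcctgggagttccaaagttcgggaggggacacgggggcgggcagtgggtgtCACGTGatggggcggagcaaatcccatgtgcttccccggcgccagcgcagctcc
Eif4a1, chr11:69672424-69672673, minus strand: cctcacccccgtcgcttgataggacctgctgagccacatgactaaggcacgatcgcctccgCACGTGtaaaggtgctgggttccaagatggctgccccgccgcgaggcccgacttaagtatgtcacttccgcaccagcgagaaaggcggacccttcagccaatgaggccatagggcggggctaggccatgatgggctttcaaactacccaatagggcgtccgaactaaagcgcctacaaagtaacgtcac
The Eif4e window shows 2 copies and those of Eif4g1 and Eif4a1 1 each. No binding was measured in these samples.

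Factors of the last steps rose together. Eif5, which makes eIF2 hydrolyse its GTP, showed 133, 109, 101 and 74.9 CPM in unstimulated, 171, 330.4, 231 and 250.4 in YFP- and 174, 457, 149 and 227 in YFP+ samples. Label m2 stood out in both stimulated groups and f2 was the lowest of YFP-, yet no stimulated sample overlapped the unstimulated range, and the log2 change was 1.22 (SE 0.31, adjusted p = 0.00462, 0.0541 without m4 and 0.0592 with no filter) in YFP- and 1.15 (0.00500, or 0.0594 with no filter) in YFP+. Eif5b, which joins the ribosomal subunits, rose by log2 0.84 (0.000433) and 0.89 (0.000171). Eif6, which keeps the large subunit apart until it is mature, had 175, 179.9, 183 and 150.3 CPM in unstimulated, 366, 358, 312 and 343 in YFP- and 378, 413, 327 and 397 in YFP+ samples. It rose without overlap, with log2 changes of 1.0 (SE 0.11, 7.3e-06) and 1.14 (9.4e-07).

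Eif5a encodes the hypusine-bearing factor that helps ribosomes past difficult peptide bonds. It registered 1319.9, 1369.8, 1468 and 1094 CPM in unstimulated, 2912, 2841, 2419 and 2984 in YFP- and 3375, 3221, 2657 and 3397 in YFP+ samples. Every stimulated sample lay above the unstimulated ones, with log2 changes of 1.09 (SE 0.12, adjusted p = 6.9e-06) and 1.27 (6.7e-07). Its paralog Eif5a2 was near the filter at 1.81, 1.5, 2.08 and 1.82 CPM in unstimulated, 2.89, 1.62, 3.62 and 2.10 in YFP- and 1.92, 2.01, 3.73 and 2.58 in YFP+ samples. Groups overlapped and the log2 differences of 0.45 and 0.46 did not pass (0.199 and 0.170), although YFP+ did with quantile normalization (0.0363). Per kb of exon, Eif5a was at 552 ± 66.7 CPM per kb in unstimulated samples (SD, n = 4) and Eif5a2 at 0.359 ± 0.0475 CPM per kb.

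Of the genes that share only the name, Eif1ad, a nuclear protein with an eIF1A-like domain, changed most. It shares 428 bases of exon with Banf1 on the opposite strand and had 45.5, 48.5, 49.2 and 39.3 CPM in unstimulated, 114, 118, 82.7 and 122 in YFP- and 149.9, 131, 99.5 and 118 in YFP+ samples. All stimulated samples were above the unstimulated ones, with log2 changes of 1.25 (SE 0.16, adjusted p = 2.6e-05) and 1.44 (3.2e-06). Eif4a3 rose by log2 0.56 (0.00404, or 0.0523 without m4) and 0.53 (0.00458). Eif4a3l2, an intronless near copy at 1.24 ± 0.110 CPM in unstimulated samples (SD, n = 4), gave log2 0.72 and 0.62 (0.00936 and 0.0169). Its calls were lost without m4 (0.0577 and 0.122), and in YFP+ also without f2 (0.0736) or m3 (0.0526) and with reduced totals (0.0843).

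Between YFP+ and YFP- samples few initiation factors differed. As deposited, 1 member was higher in YFP+ samples (3.28% of all tested genes were) and 3 were lower (18.5% of all tested genes). The median log2 difference was 0.03 for the members and -0.19 for all genes. Eif4ebp1 was higher by log2 0.47 (SE 0.11, adjusted p = 0.00639, or 0.0617 without label m2). Eif4e3 was lower, at log2 -0.76 (SE 0.15, 0.00240) and so was Eif4ebp2, at log2 -0.55 (SE 0.11, 0.00333), each in 4 of 4 labels; the Eif4ebp2 call was lost with centring (log2 -0.28, adjusted p = 0.0650). Eif3h was lower, at log2 -0.29 (0.0290), and this call was lost on leaving out any 1 label (0.0582 to 0.156) or YFP+ m3 (0.0704), and with trimmed-mean scaling (0.329), voom weights (0.312), centring (0.849), quantile normalization (0.158), no filter (0.199), no intensity trend (0.0778) or the 8 samples alone (0.0905). Members that passed as higher with libraries left out were Eif2b3 without label m3 (0.0401) or YFP+ m3 (0.0240), Eif4e without YFP+ m3 (0.0487) and Eif4g3 without label f2 (0.0344). Groups did not overlap for 2 members higher and 3 lower in YFP+, against 4.31% and 17.8% of all genes.

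This comparison depended on how libraries were scaled. Trimmed-mean scaling of the reads moved the median difference of all genes from -0.19 to -0.04, and 11 members were then higher (8.22% of all tested genes) and 2 lower (13.5%). The 10 members gained were Eif2s2, Eif2b3, Eif3b, Eif3c, Eif3k, Eif4g1, Eif4g2, Eif4g3, Eif5a and Eif6. All 3 scaffold genes were among them, at 0.37 for Eif4g1, 0.42 for Eif4g2 and 0.50 for Eif4g3 (limma adjusted p = 0.0406, 0.00881 and 0.00974). As deposited, Eif2s2 came nearest to the threshold at 0.44 (0.0549). After centring, 15 were higher (12.2%) and 1 lower (12.1%). Quantile normalization called 3 higher (9.41%) and 2 lower (11.6%). Relative to the median of all genes the members lay 0.21 higher as deposited. Trimmed-mean scaling and centring also gave 0.21, but they shift all genes of a library about alike and so could hardly change this value. With quantile normalization the members lay 0.06 higher, at a median of 0.12 against 0.06 for all genes. Eif4ebp1 was higher and Eif4e3 lower under each of these scalings.

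**Figure D5:**
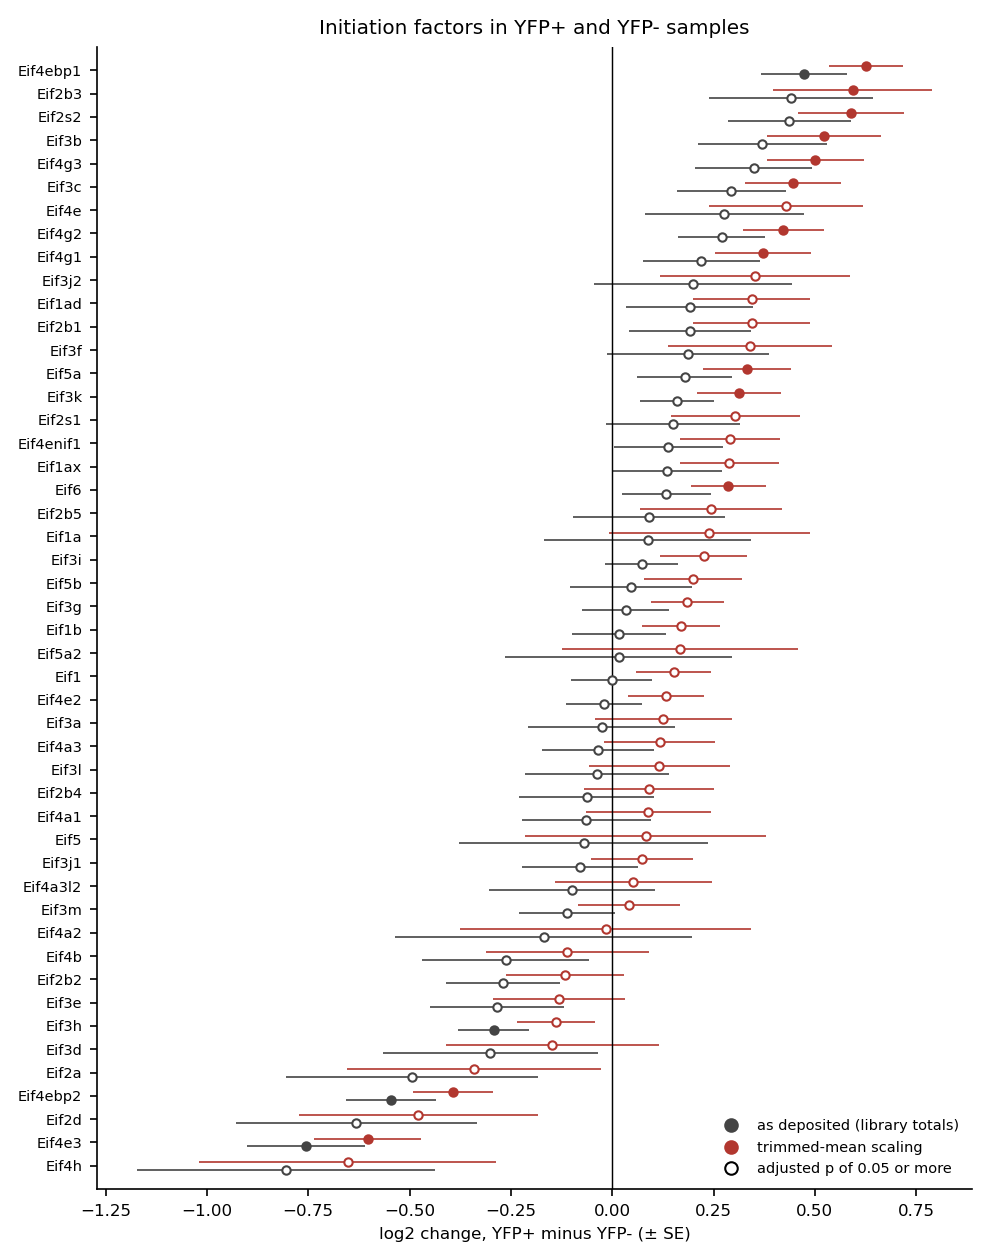
Log2 difference of YFP+ and YFP- samples with its SE for the 48 tested members, from library totals as deposited (grey) and after trimmed-mean scaling (red). Filled points passed the adjusted p of 0.05. The red points lie to the right of the grey ones throughout, and 11 red points against 1 grey point are filled above 0.

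Genes around the initiation factors were followed in 6 lists. Their counts stand against the shares of all tested genes called higher and lower, 30.2% and 20.9% in YFP-, 27.5% and 33.3% in YFP+, and 3.28% and 18.5% between YFP+ and YFP-. Of 11 tested genes of the mTORC1 pathway, 7 were higher and 1 lower in YFP- against unstimulated samples, and 6 and 2 in YFP+. Pdcd4, an inhibitor of eIF4A that mTORC1 signalling removes, changed most in YFP+, at log2 -2.0 (adjusted p = 4.3e-08), and was also lower than in YFP- samples, at log2 -1.54 (adjusted p = 9.7e-06). Mlst8, an mTOR partner, changed most in YFP-, by log2 1.51 (adjusted p = 6.1e-05). Between YFP+ and YFP- samples 1 was higher and 1 lower.

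Kinases of eIF4E and eIF2 alpha were mixed. Among the 7 tested cap kinases and poly(A)-binding proteins 1 was higher and 1 lower in YFP-, 1 and 2 in YFP+, and 0 and 2 in YFP+ against YFP- samples. Mknk2, a kinase that phosphorylates eIF4E, had the largest change in YFP+ (log2 -1.75, adjusted p = 3.2e-07) and against YFP- (log2 -0.78, adjusted p = 0.00236), and Pabpc4, a poly(A)-binding protein, in YFP- (log2 1.04, adjusted p = 5.6e-05). Of the 6 eIF2 alpha kinases and phosphatase subunits 3 were higher and 1 lower in YFP-, 2 and 2 in YFP+, and 0 and 1 in YFP+ against YFP- samples. Eif2ak3, the kinase of the endoplasmic reticulum stress response, changed most against unstimulated samples, at log2 -1.72 (adjusted p = 2.6e-05) and -1.43 (adjusted p = 6.3e-05). Eif2ak2, the kinase activated by double-stranded RNA, was lower in YFP+ than in YFP- samples, at log2 -1.07 (adjusted p = 0.00173).

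Other translation genes largely rose. Among 6 tested accessory initiation proteins 5 were higher and 0 lower in each stimulated group, and Abce1, the ribosome recycling ATPase, changed most (log2 1.55, adjusted p = 7.3e-07, and log2 1.79, adjusted p = 6.2e-08). Both hypusine enzymes, which modify eIF5A, were higher, with Dhps at log2 1.29 (adjusted p = 7.3e-06) and 1.61 (adjusted p = 3.8e-07). Of 9 genes listed under elongation and termination, 7 were higher and 1 lower in YFP-, and 6 and 1 in YFP+. Eef1e1, held in this list, is not itself an elongation factor. Eef1e1 changed most, by log2 2.14 (adjusted p = 6.5e-08) and 2.7 (adjusted p = 3.0e-09), and was the 1 gene of this list that differed between YFP+ and YFP- samples (log2 0.57, adjusted p = 0.00794). Neither the accessory proteins nor the hypusine enzymes had a call in that comparison. Across the 6 lists the changes were no test of the members, since the lists were chosen with earlier results of these data known.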

How the data were processed

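RNA sequencing of 12 samples in 3 groups of 4 was used, from amplified cDNA (SMARTer Ultra Low kit, per the labels' protocols). Per the submitters' processing notes, reads were handled with bcl2fastq, STAR 2.7.9a and Subread featureCounts 2.0.3 on GRCm38; the annotation and strand setting are not given in the sources used here. The authors deposited log2 CPM (read counts per 1000000 reads, moderated by a prior of 0.5 reads). After 287 repeated lines were dropped, inverting that formula gave whole reads for 100% of values within 0.1 reads, and the CPM printed here are reads over library totals. Features kept had log2 CPM above 0 in at least 4 samples. A single limma 3.58.1 fit (R 4.3.3, intensity trend, all 12 samples, no covariate) on the deposited log2 values gave changes, SE and Benjamini-Hochberg adjusted p over 12364 features, and a change was called at 0.05. The fit was also run on simulated reads with known changes. These changes were placed in a small part of the genes and in YFP+ samples only, with the same dispersion for all genes and no deviating library. That run therefore does not cover the wide changes and deviating libraries of these data. Paralog ratios were compared with 2-sided exact permutation tests (scipy 1.17.1).

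Members and lists were chosen with earlier results of these data known. Values per sample are given for paralogs, for the member of each complex with the largest YFP+ change among those called with 1 direction in 4 of 4 labels, and for members opposite to their complex. Gene positions are from GENCODE M21 (GRCm38), which held 99.5% of the deposited IDs. Alternatives covered scaling, filters, variance model, threshold, samples fitted, left-out labels and a block on the labels, and 2 were chosen after seeing the data.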

Additional observations from a re-analysis of the deposited data

Results flagged for a closer look

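A sample was marked when its gap to the nearest other sample of its group, divided by the range of the group, passed Dixon's 95% critical value for 4 samples. This was asked of 144 groups, 48 members in 3 groups each, and chance alone marks about 1 in 20, or 7.2 of them. It happened in 13. In unstimulated samples m4 was the low sample for Eif1a (0.926), Eif4a1 (0.875), Eif3d (0.868), Eif4e (0.859) and Eif2s1 (0.836). In YFP+ samples m3 was the low sample for Eif1a (0.905), Eif2d (0.87), Eif4e3 (0.858) and Eif4e (0.851). Elsewhere the YFP+ f2 sample was low for Eif3j2 (0.884), the YFP+ m2 sample high for Eif2b5 (0.868), the YFP- f2 sample high for Eif4g2 (0.852) and the YFP- m3 sample low for Eif5b (0.853). Members share their libraries, so marks within 1 library are not independent.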

How the results depend on the processing

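Of the 1973 values that the alternatives gave for 104 single-gene results, 1767 kept direction and side of the threshold, 117 lost the call, 82 gained it and 7 reversed. By gene result, 28 of the 104 were kept under every alternative. These were 12 of 42 in YFP- against unstimulated, 16 of 44 in YFP+ against unstimulated and 0 of 18 in YFP+ against YFP- samples. The required log2 change of at least 1 drops any smaller call. As deposited, the YFP+ minus YFP- log2 values of the members ran from -0.81 to 0.47, so no such call could be kept. Results without a call as deposited were listed only where an alternative changed them, so the 0 of 18 was fixed in advance. For Eif4e3 no other alternative lost the YFP+ against YFP- call. In YFP- against unstimulated samples, a required log2 change of at least 1 left 14 members higher and 0 lower (15.4% and 10.8% of all tested genes), and quantile normalization (27.6%), or totals without rRNA-like features, Lars2, Mir6236 and Gm23935 (27.4%; chosen after seeing the data), gave 4 lower. In YFP+ against unstimulated samples these settings gave 15 higher (14.8%), 4 lower (30.7%) and 5 lower (39.5%). In YFP+ against YFP- samples, centring gave 15 members higher (12.2%), voom weights and trimmed-mean scaling 11 each (9.25% and 8.22%), quantile normalization 3 (9.41%), and a required log2 difference of at least 1 gave 0 (0.736%), against 0 to 3 when libraries were left out (0 without m2, 1.22% of all genes; 2 without f2 or m3, 3.14% and 1.98%; 3 without YFP+ m3 alone, 3.37%). Lower were 1 with centring (12.1%) and 0 with the fold requirement (9.42%). The YFP+ minus unstimulated value of Eif2b2 turned positive with centring (0.036), trimmed-mean scaling (0.043), voom weights (0.051), without m3 (0.0098, in a range from -0.18 over the labels left out) and without YFP+ m3 (0.023). That of Eif3h became -0.079 with the totals named above, and the YFP+ minus YFP- value of Eif3g became -0.0031 with totals without rRNA-like features. The cause was not tested.

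With a replicate block on the labels, 37 members were higher and 3 lower in YFP- (32.1% and 21.9% of all tested genes), 35 and 2 in YFP+ (28.7% and 34.2%), and 1 and 3 between YFP+ and YFP- (3.61% and 21.4%). The block brought calls for Eif3f, Eif4b and Eif4h in YFP- (adjusted p = 0.0423, 0.0130 and 0.0348) and Eif3d in YFP+ (0.0481). Same-labelled samples deviated together unevenly (r from -0.059 to 0.10, from -0.042 to 0.38 and from 0.054 to 0.37 in these comparisons), and each correlated best with its own label in 1, 2 and 3 of 4 cases, so the labels were not taken as pairs. Genes at or under 3 reads cannot be compared at this depth.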

Other observations

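Some members share exon sequence with a neighbour, and with the strand setting not given in the sources used here such reads cannot be told apart. Eif1ad overlaps Banf1 on the opposite strand over 428 bases, or 15.3% of its exon length, and Banf1 averaged 249 CPM. Eif3d overlaps Gm17638 over 2151 bases (43.3%), where Gm17638 averaged 0.192 CPM. Also on the opposite strand, Eif3j1 overlaps Spg11 over 1107 bases (19.0%, Spg11 at 8.66 CPM). Eif2b4 overlaps Snx17 on the opposite strand over 204 bases (7.85%, Snx17 at 132 CPM). On the same strand, Eif4e3 overlaps Gm20696 over 373 bases (14.8%, Gm20696 at 0.915 CPM). Also on the same strand, Eif4ebp3, which was below the filter, overlaps AC115631.1 over 501 bases (67.3%, AC115631.1 at 0.062 CPM).

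A pair of other promoter motifs was searched on both strands of the 250 bases before each start. CCGGAAG, a core that ETS factors recognise, was found before 12 of 38 member genes, in 24% of member windows and 6.91% of all windows. CCAAT, the box bound by NF-Y, was found before 13, in 26% of member windows and 33.8% of all windows. These matches describe letters only.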
